A study of Rattus norvegicus with 15 samples.

Results

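The microRNAs (miRNAs) of the miR-17, miR-18 and miR-19 seed families were followed through 14 days after sciatic nerve injury in rats. A listed name on the array was the rule for membership, and it found all 8 members, rno-miR-17-5p, rno-miR-18a, rno-miR-19a, rno-miR-19b, rno-miR-20a, rno-miR-20b-5p, rno-miR-93 and rno-miR-106b, among the 350 rat miRNAs measured. They are written here without the rat prefix rno. Total RNA of sciatic nerve from adult male rats was hybridised to 15 single-colour arrays, in 5 groups of 3. The groups were nerve taken without injury, called day 0, and nerve taken 1, 4, 7 and 14 days after injury. The labels give no strain, transgene or drug, and by the labels the groups differ only in the time after injury. They describe the injury both as a resection and as a crush, and the tissue both as a proximal stump and as the injury site, so the word injury stands for either. They do not say whether replicates came from separate rats or from pools, so a p-value here covers no more than the spread among these arrays, which may be technical. Whole nerve tissue was measured, so a change in the number of cells of one type cannot be told apart from a change in RNA per cell.

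miRNAs guide Argonaute proteins to messenger RNAs through the seed, the bases near the 5′ end that pair with the target. The miR-17-92 cluster is one long transcript that yields several miRNAs with different seeds. In human and mouse cells the transcription factors MYC and E2F activate it. Its miR-17 seed members repress the cell cycle inhibitor p21 and the E2F factors themselves, and miR-18a represses the matrix protein CTGF. The miR-106a-363 and miR-106b-25 clusters are paralogs that arose by duplication. In injured nerve, Schwann cells shed their myelin programme, divide and later remyelinate, while leukocytes enter the tissue.

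The mature sequences are shown because they set the families apart and show how little the members differ. They come from RefSeq on the rat build GRCr8, where all 8 members were matched, are written 5′ to 3′, and have the seed (bases 2 to 8) in capitals.
miR-17-5p: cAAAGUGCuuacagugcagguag
miR-20a: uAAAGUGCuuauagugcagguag
miR-20b-5p: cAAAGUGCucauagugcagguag
miR-93: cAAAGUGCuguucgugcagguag
miR-106b: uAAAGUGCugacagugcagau
miR-18a: uAAGGUGCaucuagugcagauag
miR-19a: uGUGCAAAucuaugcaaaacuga
miR-19b: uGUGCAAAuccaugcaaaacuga

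The first 5 share the seed AAAGUGC, miR-18a has AAGGUGC, and both miR-19 members have GUGCAAA. Positions are counted from 1 at the 5′ end, with the base of miR-17-5p first. miR-20a differs from miR-17-5p by C1U and C12U, miR-20b-5p by U10C and C12U, and miR-93 by U10G, A11U, C12U and A13C. miR-106b differs by C1U, U10G and G20A over the 21 bases compared. miR-19b and miR-19a differ by C11U alone, with the base of miR-19b first. Probes for such close relatives can take up each other's signal, and how much they did was not tested.

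The members lie in 3 clusters of miRNA hairpins. miR-17-92 holds 6 hairpins in 785 bases of chromosome 15 (chr15:98587848-98588632, plus strand), and its mature members include miR-18a at chr15:98588000-98588022, miR-19a at chr15:98588179-98588201 and miR-20a at chr15:98588318-98588340. miR-106a-363 holds 5 hairpins in 871 bases of the X chromosome (chrX:137342777-137343647, minus strand), among them miR-20b-5p at chrX:137343239-137343261. miR-106b-25 holds 3 hairpins in 494 bases within the bounds of Mcm7, which encodes a subunit of the replicative DNA helicase, with miR-93 at chr12:22156894-22156916 and miR-106b at chr12:22157103-22157123, both on the minus strand. Both miR-17-5p and miR-19b have copies in 2 clusters: miR-17-5p at chr15:98587861-98587883 and, from the Mir106a hairpin, at chrX:137343615-137343637, and miR-19b at chr15:98588486-98588508 and chrX:137343070-137343092. An array cannot tell these copies apart.

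Each value below is the background-subtracted spot intensity of a miRNA as a percentage of the array's 75th percentile. That percentile is taken on each array over the 164 miRNAs detected on every array. Changes are on the log2 scale of the same ratio, from limma, with standard errors. A call is a Benjamini-Hochberg adjusted p under 0.05 over the 231 miRNAs tested. Percentages of this kind rank times for one miRNA but do not rank one miRNA against another, since probes bind unequally. Between 172 and 239 miRNAs were detected per array, and the arrays of a group correlated at 0.973 to 0.998. Day 14 replicate 3 stood apart, with the fewest detected miRNAs, negative controls at a mean intensity of -8.54 and 5.67% outlier spots, against 2.66% to 4.17% elsewhere. Day 0 replicate 1 also stood apart, since its 5 skeletal muscle miRNAs summed to 1629%, against 73.8% and 124% on the other day 0 arrays. The bright corner control had mean intensities of 86.1 to 113 on day 1, whereas other days gave 868 to 2320. Days 0, 1 and 4 each lay on a slide of their own, so slide and group cannot be told apart in any comparison with day 0. Over all tested miRNAs the median change against day 0 was -0.26, -0.26, -0.32 and -0.37 on days 1, 4, 7 and 14. The split of calls moved with the scaling. Of the called miRNAs, 27.9%, 30.9%, 27.6% and 24.0% were higher on days 1, 4, 7 and 14, beside 40.1%, 50%, 56.6% and 56.5% when the 75th percentile was taken over all miRNAs of an array. Without scaling these shares were 20.1%, 21.0%, 32.6% and 60.4%.

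Most of the 8 miRNAs rose after injury, and miR-20b-5p fell on days 4 and 7. miR-18a had the largest rise of the 8 at each time in the main setting, but under a normexp background correction with an offset of 50 it was 0.76 on day 4, below miR-20a at 0.85. Of the 8, 5 rose and 0 fell on day 1 in limma's test, where 16.9% of all tested miRNAs were higher and 43.7% lower. On day 4 the count was 7 higher and 1 lower, against 20.3% and 45.5% of all tested miRNAs. On day 7 it was again 7 higher and 1 lower, against 17.3% and 45.5%. By day 14 it was 7 higher and 0 lower, against 16.0% and 50.6%. Groups without overlap were counted too. On day 1, 3 of the 8 had all injured arrays above all day 0 arrays and 0 had them below, beside 15.6% and 38.1% of all tested miRNAs. On day 4 these counts were 7 above and 1 below, beside 25.1% and 51.9%, and on day 7 again 7 and 1, beside 20.8% and 54.1%. On day 14 they were 7 above and 0 below, beside 16.0% and 46.8%. The median change of the 8 was 0.33, 0.85, 0.73 and 0.73 on days 1, 4, 7 and 14. All 8 passed limma's F test over the 5 groups, as did 86.1% of all tested miRNAs. miR-18a, counted here as higher and without overlap at each time, entered testing only because the injured groups detected it.

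**Figure D1:**
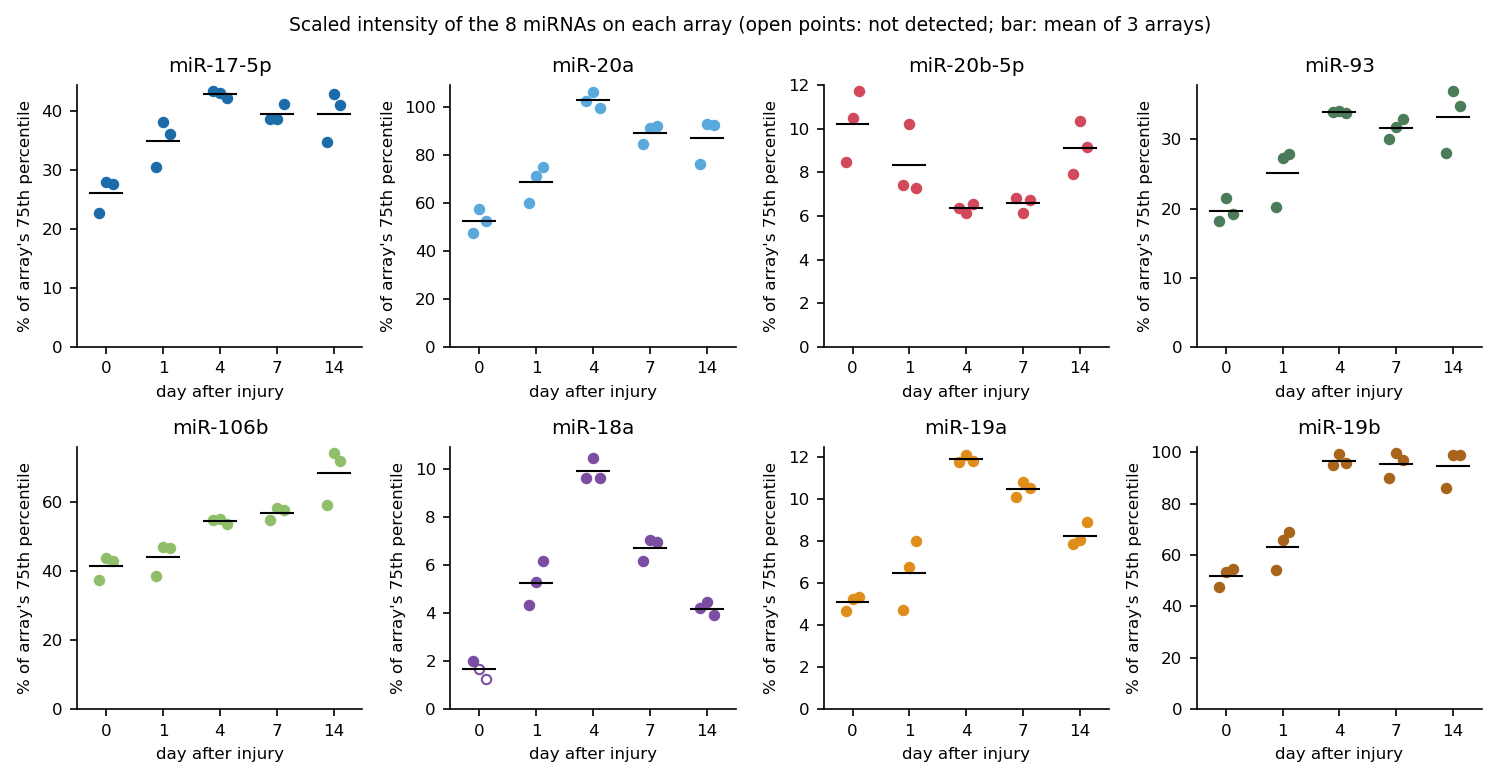
Scaled intensity of each of the 8 miRNAs on each of the 15 arrays, as a percentage of the array's 75th percentile, by day after injury (days evenly spaced). Points are arrays, open points are arrays on which the miRNA was not detected, and bars are means of 3 arrays. miR-18a climbs to 9.61 to 10.5% on day 4 and declines afterwards, whereas miR-20b-5p is lowest on days 4 and 7.

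**Figure D2:**
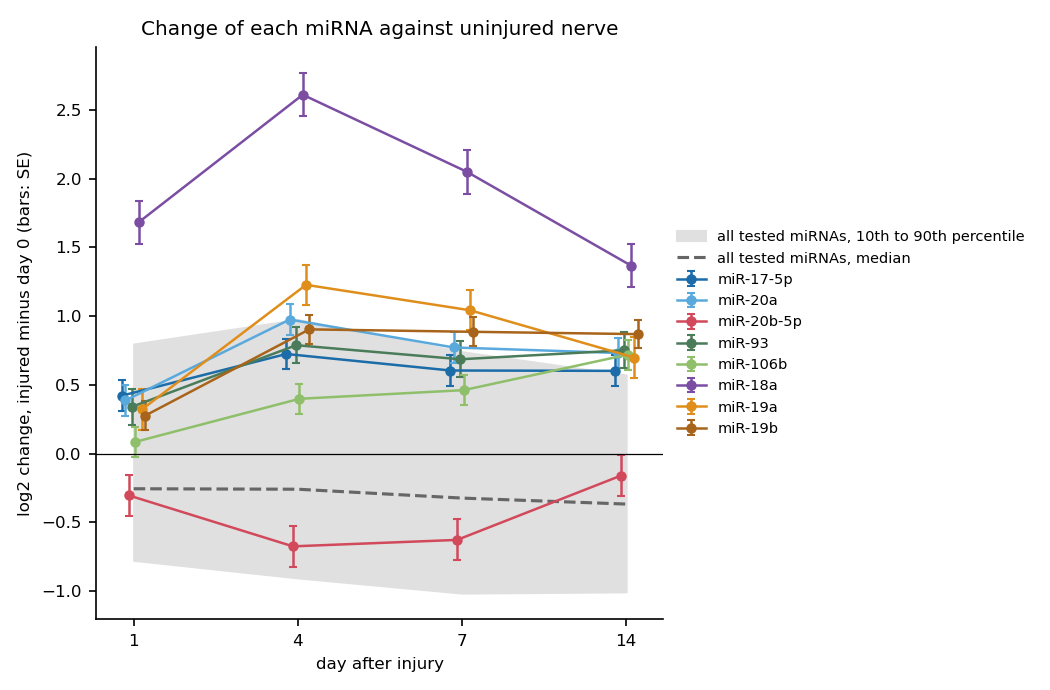
Log2 change of each miRNA against day 0 (y axis) on days 1, 4, 7 and 14 (x axis, evenly spaced), with standard errors as bars. The grey band spans the 10th to 90th percentile of the 231 tested miRNAs and the dashed line is their median. miR-18a lies above the band at all 4 times, and miR-20b-5p is the lowest of the 8 at each time.

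Among the miR-17 seed members, miR-17-5p itself, whose hairpin comes first in the miR-17-92 cluster, was at 22.7%, 27.9% and 27.6% on the 3 day 0 arrays. It was at 30.5%, 38.1% and 36.1% on day 1, at 43.4%, 43.1% and 42.1% on day 4, at 38.6%, 38.6% and 41.1% on day 7, and at 34.7%, 42.9% and 41.0% on day 14. Every injured array was above every day 0 array. Against day 0, miR-17-5p rose by 0.42 ± 0.11 on day 1 (adjusted p = 0.00547) and by 0.72 ± 0.11 on day 4 (adjusted p = 8.3e-05), and the rise was 0.60 ± 0.11 on both later days. Without scaling, the day 1 value of miR-17-5p was 0.28, short of the threshold (adjusted p = 0.0600).

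miR-20a, from the same transcript and with the same seed, followed a like course. It was at 47.3%, 57.5% and 52.6% on day 0, at 60.0%, 71.4% and 74.95% on day 1, and at 103%, 107% and 99.7% on day 4. On day 7 it was at 84.9%, 91.5% and 92.0%, and on day 14 at 76.4%, 93.1% and 92.5%. No injured array overlapped with day 0, and day 4 was the highest group. The rises against day 0 were 0.39, 0.98, 0.77 and 0.73 on days 1, 4, 7 and 14 (SE 0.11 each), with adjusted p from 6.39e-06 on day 4 to 0.00813 on day 1. Without scaling, the day 1 value of miR-20a was 0.24, with an adjusted p of 0.0992.

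miR-93 and miR-106b are the members encoded within the bounds of Mcm7. miR-93 was at 18.2%, 21.6% and 19.2% on day 0, and its 3 day 1 arrays, at 20.2%, 27.3% and 27.9%, overlapped with these. On day 4 it lay at 33.9%, 34.1% and 33.7%, on day 7 at 30.0%, 31.8% and 33.0%, and on day 14 at 28.1%, 37.0% and 34.8%, all above day 0. Its rise was 0.34 ± 0.13 on day 1 (adjusted p = 0.0379), 0.79 ± 0.13 on day 4, 0.69 ± 0.13 on day 7 and 0.75 ± 0.13 on day 14 (highest adjusted p of these 3, 0.000452). On day 1, miR-93 did not pass without scaling (0.20, adjusted p = 0.186) or with all 350 miRNAs tested (adjusted p = 0.0551).

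miR-106b started at 37.4%, 43.7% and 43.0% on day 0 and overlapped with these values on day 1, at 38.5%, 46.8% and 46.5%. It then lay at 54.6%, 55.1% and 53.5% on day 4, at 54.6%, 58.2% and 57.6% on day 7, and at 59.0%, 74.0% and 71.8% on day 14. It was the one member of the 8 whose group mean was highest on day 14. Against day 0 its change was 0.09 ± 0.11 on day 1, which did not pass (adjusted p = 0.502), and it rose by 0.40 ± 0.11 on day 4 (adjusted p = 0.00509), 0.46 ± 0.11 on day 7 and 0.72 ± 0.11 on day 14 (adjusted p = 7.29e-05). On day 14 against day 7 the difference of 0.26 ± 0.11 missed the threshold (adjusted p = 0.134). The day 4 value of miR-106b was 0.25 without scaling, with an adjusted p of 0.0794.

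miR-20b-5p was the exception among the miR-17 seed members. It was at 8.45%, 10.5% and 11.7% on day 0 and at 7.42%, 10.2% and 7.30% on day 1, where the groups overlapped. On day 4 it was at 6.37%, 6.13% and 6.56%, and on day 7 at 6.82%, 6.14% and 6.74%. All 6 of these arrays were below every day 0 array. On day 14 it was at 7.91%, 10.3% and 9.14%, again overlapping with day 0. Against day 0, miR-20b-5p fell by 0.67 ± 0.15 on the log2 scale on day 4 (adjusted p = 0.00134) and by 0.63 ± 0.15 on day 7 (adjusted p = 0.0022). The changes on day 1 (-0.30 ± 0.15, adjusted p = 0.0928) and day 14 (-0.16 ± 0.15, adjusted p = 0.364) did not pass. Relative to the median change of all tested miRNAs, its day 4 and day 7 changes were -0.42 and -0.30. The falls on both days passed under every alternative run, at -0.83 to -0.27 and -0.76 to -0.26. Without day 0 replicate 1 the day 1 value was -0.43 and passed (adjusted p = 0.0215).

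miR-18a, the only member with the miR-18 seed, gave dim signals in uninjured nerve. It was at 2.02%, 1.67% and 1.26% on day 0, which are intensities of 12.9, 10.1 and 7.71, and was detected there on replicate 1 only. It was at 4.32%, 5.27% and 6.15% on day 1, at 9.61%, 10.5% and 9.61% on day 4, at 6.17%, 7.03% and 6.94% on day 7, and at 4.19%, 4.46% and 3.90% on day 14, detected on all 12 injured arrays. Every injured array was above every day 0 array, and day 4 exceeded each other group with no overlap. miR-18a entered testing only because the injured groups, where it was high, detected it. Its tests and counts against day 0 are therefore a description, not separate support for a rise. The rise of miR-18a against day 0 was 1.68 ± 0.16 on day 1 (3.21-fold, adjusted p = 2.04e-06), 2.61 ± 0.16 on day 4 (6.10-fold, adjusted p = 1.18e-08), 2.05 ± 0.16 on day 7 (4.14-fold) and 1.37 ± 0.16 on day 14 (2.58-fold, adjusted p = 8.39e-06).

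The size of the miR-18a rise, unlike its direction, rested on how the dim day 0 signal was handled. On day 4 it was 4.88 in the deposited value table and 3.82 with the total signal of the software. After a normexp background correction of the spot medians it was 1.55, and with an offset of 50 added 0.76, since an offset compresses dim values. Day 14 with that offset was the 1 comparison of miR-18a with day 0 that did not pass (0.09, adjusted p = 0.351).

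**Figure D3:**
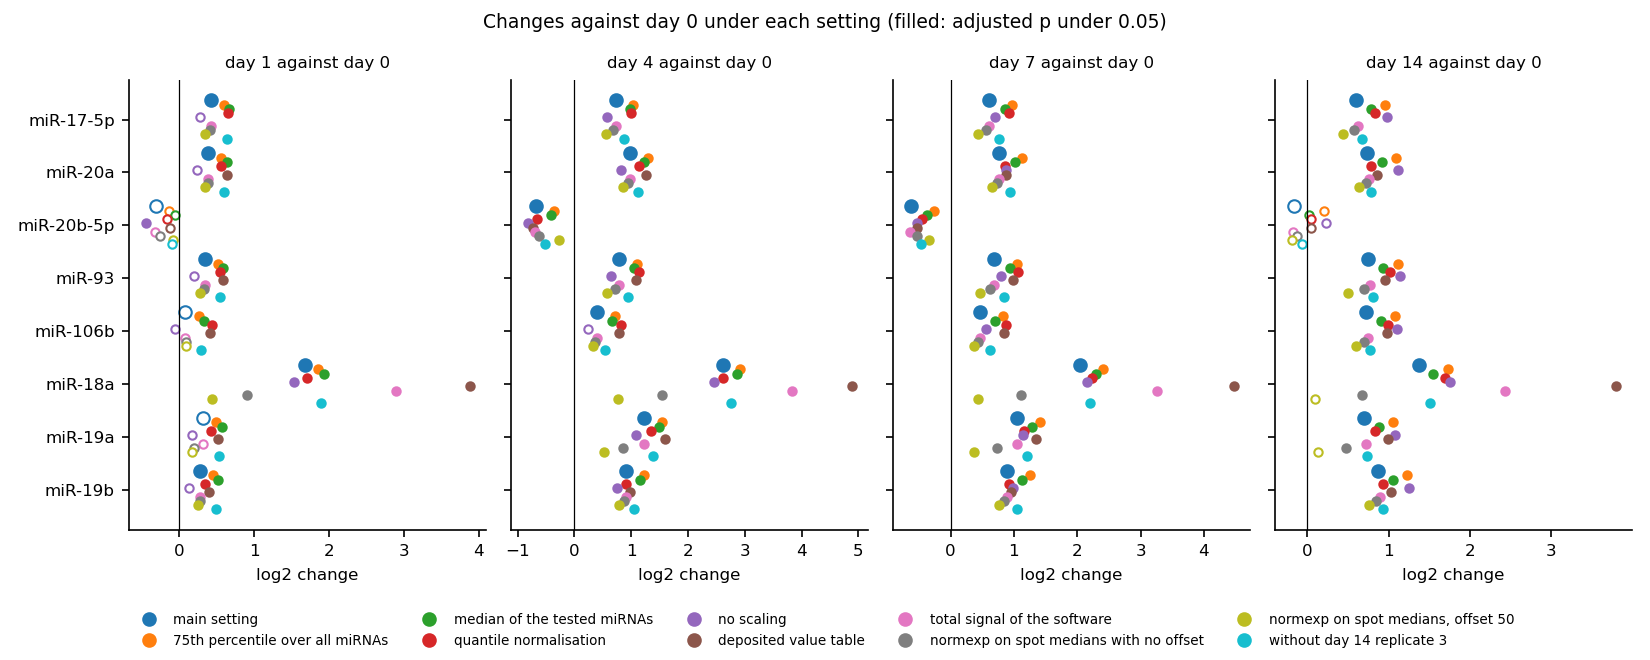
Log2 change of each miRNA against day 0 (x axis) under 10 settings (colours), with 1 panel per day. Filled points have an adjusted p under 0.05. miR-18a is above 0 in each setting but spans 0.76 to 4.88 on day 4, and miR-20b-5p is below 0 on days 4 and 7 in each setting and on both sides of 0 on day 14.

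Both miR-19 seed members were above day 0 on every array from day 4 on. miR-19a was at 4.70%, 5.23% and 5.36% on day 0 and at 4.74%, 6.75% and 8.03% on day 1, where the groups overlapped. It was at 11.8%, 12.1% and 11.8% on day 4, at 10.1%, 10.8% and 10.5% on day 7, and at 7.85%, 8.04% and 8.91% on day 14. These last 3 groups were each separate from day 0 and from one another. On day 1, miR-19a changed by 0.32 ± 0.15 and did not pass (adjusted p = 0.0713). It rose by 1.23 ± 0.15 on day 4 (2.34-fold, adjusted p = 8.67e-06), 1.04 ± 0.15 on day 7 and 0.70 ± 0.15 on day 14 (adjusted p = 0.00106). With the normexp correction and its offset the day 14 value of miR-19a was 0.13, with an adjusted p of 0.191.

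miR-19b was at 47.4%, 53.6% and 54.4% on day 0, and at 54.1%, 65.7% and 69.2% on day 1, where 1 array fell among the day 0 values. On days 4, 7 and 14 it stayed near 1 level, at 95.1% to 99.4%, 90.1% to 99.6% and 86.0% to 99.1%. Its rise against day 0 was 0.28 ± 0.10 on day 1 (adjusted p = 0.0345), 0.90 ± 0.10 on day 4 (adjusted p = 6.48e-06), 0.89 ± 0.10 on day 7 and 0.87 ± 0.10 on day 14. The day 1 rise of miR-19b did not pass without scaling (0.13, adjusted p = 0.365).

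The day 1 count rested on single arrays. It was 3 higher without either of day 0 replicates 1 and 2 or without either of day 1 replicates 2 and 3, and 1 higher without scaling. Of all tested miRNAs, 33 to 39 were higher without those arrays and 32 without scaling, against 39 of 231 in the main setting. Leaving out day 14 replicate 3 gave 7 higher, with scaling then over another set of miRNAs. Of all 234 miRNAs then tested, 58 were higher and 68 lower, against 39 and 101 in the main setting. Their median change was then -0.04, against -0.26. The counts of rises and falls on days 4, 7 and 14 were the same without day 0 replicate 1 and without day 14 replicate 3, at 7 and 1, 7 and 1, and 7 and 0.

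Each time was also compared with the one before it. On day 4 against day 1, 7 of the 8 were higher and 0 lower, against 27.7% and 23.8% of all tested miRNAs. All 7 had their day 4 arrays above their day 1 arrays, as did 28.6% of all tested miRNAs, and miR-20b-5p had them below, as did 32.0%. The largest of these rises were 0.93 ± 0.16 for miR-18a (adjusted p = 0.000429) and 0.91 ± 0.15 for miR-19a (adjusted p = 0.000317), and the smallest was 0.30 ± 0.11 for miR-17-5p (adjusted p = 0.0377). Without day 1 replicate 1 the count was 4 higher and 1 lower, where 48 and 62 of all 232 tested miRNAs were. miR-20b-5p changed by -0.37 ± 0.15 and did not pass (adjusted p = 0.0515).

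On day 7 against day 4, 0 of the 8 passed in either direction in limma's test, where 1.30% of all tested miRNAs were higher and 4.76% lower. The nearest was miR-18a, at -0.56 ± 0.16 (adjusted p = 0.0511), and 5 of the 8 had all 3 day 7 arrays below all 3 day 4 arrays and 0 had them above, beside 32.9% and 17.7% of all tested miRNAs. The count of 0 falls in limma's test became 1 in several alternatives, among them leaving out day 0 replicate 1 or 3 or day 1 replicate 1 or 3. On day 14 against day 7, 0 were higher and 1 lower, against 4.76% and 9.09% of all tested miRNAs, and 2 had all day 14 arrays above those of day 7 and 2 below, beside 15.6% and 22.5%. The one that fell was miR-18a, by 0.68 ± 0.16 on the log2 scale (adjusted p = 0.0142). Its change was -0.63 (adjusted p = 0.0185) on the slide that held day 7 and 2 of the 3 day 14 arrays, and -0.69 with slide as a random block (adjusted p = 0.0141). The call was lost under quantile normalisation (-0.53, adjusted p = 0.0838), without scaling (-0.40, adjusted p = 0.0839), in the deposited table (-0.68, adjusted p = 0.469), with the total signal (-0.84, adjusted p = 0.126) and without day 7 replicate 2 (-0.65). miR-20b-5p changed by 0.47 ± 0.15 in the same comparison and did not pass (adjusted p = 0.0518).

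The design allows members to be set against each other within an array, which removes the scaling but not the handling of dim signals. For 7 pairs chosen by cluster and seed, the log2 difference between 2 members was compared between the 12 injured and 3 day 0 arrays by an exact two-sided permutation test over 455 splits, whose smallest possible p is 0.0044, and p was adjusted over the 7 pairs. miR-18a shifted against miR-17-5p, which has a copy on the same transcript, by 1.34, with all 12 injured arrays above all 3 day 0 arrays (adjusted p = 0.0154). Its shift was 1.26, 1.88, 1.44 and 0.77 on days 1, 4, 7 and 14. On day 0, miR-18a was detected on replicate 1 only, so the day 0 side of this pair rests mostly on undetected values. miR-20b-5p shifted against miR-17-5p by -1.03, with all 12 injured arrays below all 3 day 0 arrays (adjusted p = 0.0154). These 2 miRNAs differ at 2 of 23 bases. That shift was -0.73, -1.40, -1.23 and -0.76 on the 4 days.

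Without any 1 of the day 0 arrays the adjusted p of both was 0.0769, since 2 day 0 arrays allow fewer splits. The shift of miR-18a was then 1.11 to 1.59 and that of miR-20b-5p -1.06 to -0.97. The shift of miR-18a against miR-17-5p was also 0.51 (adjusted p = 0.0923) under normexp without an offset and -0.014 with the offset of 50. The shift of miR-20b-5p stayed between -1.07 and -0.67 in the alternatives.

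The other 5 pairs did not pass. miR-93 shifted against miR-106b by 0.23 (exact permutation p = 0.0308, adjusted p = 0.0718), with 10 of 12 injured arrays above all day 0 arrays. miR-19a shifted by 0.23 against miR-17-5p (adjusted p = 0.246) and by 0.09 against miR-19b (adjusted p = 0.466), and the second of these was -0.34 and passed under normexp with the offset (adjusted p = 0.0154). miR-20a shifted by 0.13 against miR-17-5p (adjusted p = 0.185), and miR-106b by -0.17 (adjusted p = 0.234). For miR-106b against miR-17-5p, the shift was -0.34, -0.33, -0.14 and 0.12 on days 1, 4, 7 and 14, so its sign on day 14 was opposite to that on the earlier days.

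**Figure D4:**
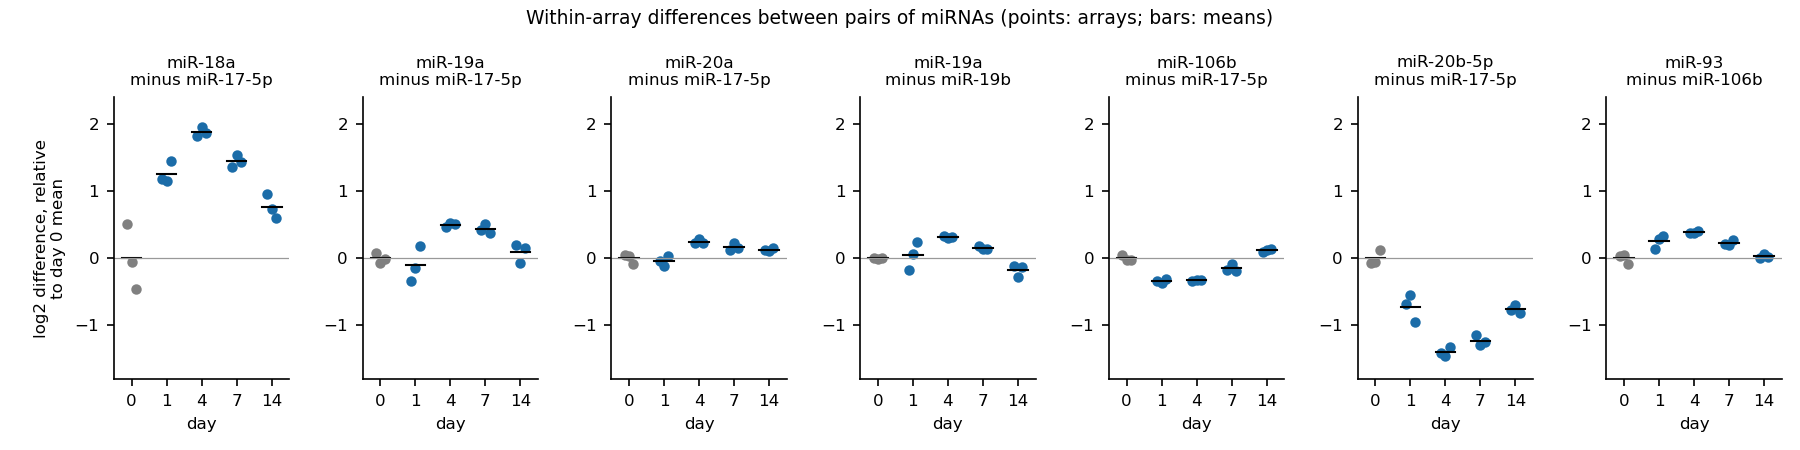
Within-array log2 difference of 7 pairs of miRNAs, relative to the mean of the 3 day 0 arrays (y axis), by day (x axis, evenly spaced). Points are arrays, grey on day 0 and blue on injured days, and bars are group means. miR-18a minus miR-17-5p is above day 0 and miR-20b-5p minus miR-17-5p is below day 0 on all 12 injured arrays. On day 0, miR-18a was detected on 1 of the 3 arrays.

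Separate probes of a miRNA, where they gave signal, moved in the same direction against day 0, but not always by the same amount. On day 1 the 2 probes of miR-20a changed by 0.61 and 0.28, and those of miR-93 by 0.49 and 0.30. The 2 probes of miR-18a changed by 2.85 and 2.48 on day 4 against day 0, at mean intensities of 42.0 and 68.1 on day 4 and 6.67 and 13.8 on day 0. miR-20a had the next widest gap on day 4 among the members with 2 probes, at 1.19 and 0.87. miR-20b-5p was read by 4 probes. One of them gave no signal, at a mean intensity of -0.87 on day 4 and -0.49 on day 0, and the other 3 changed by -0.90, -0.75 and -0.62 on day 4.

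**Figure D5:**
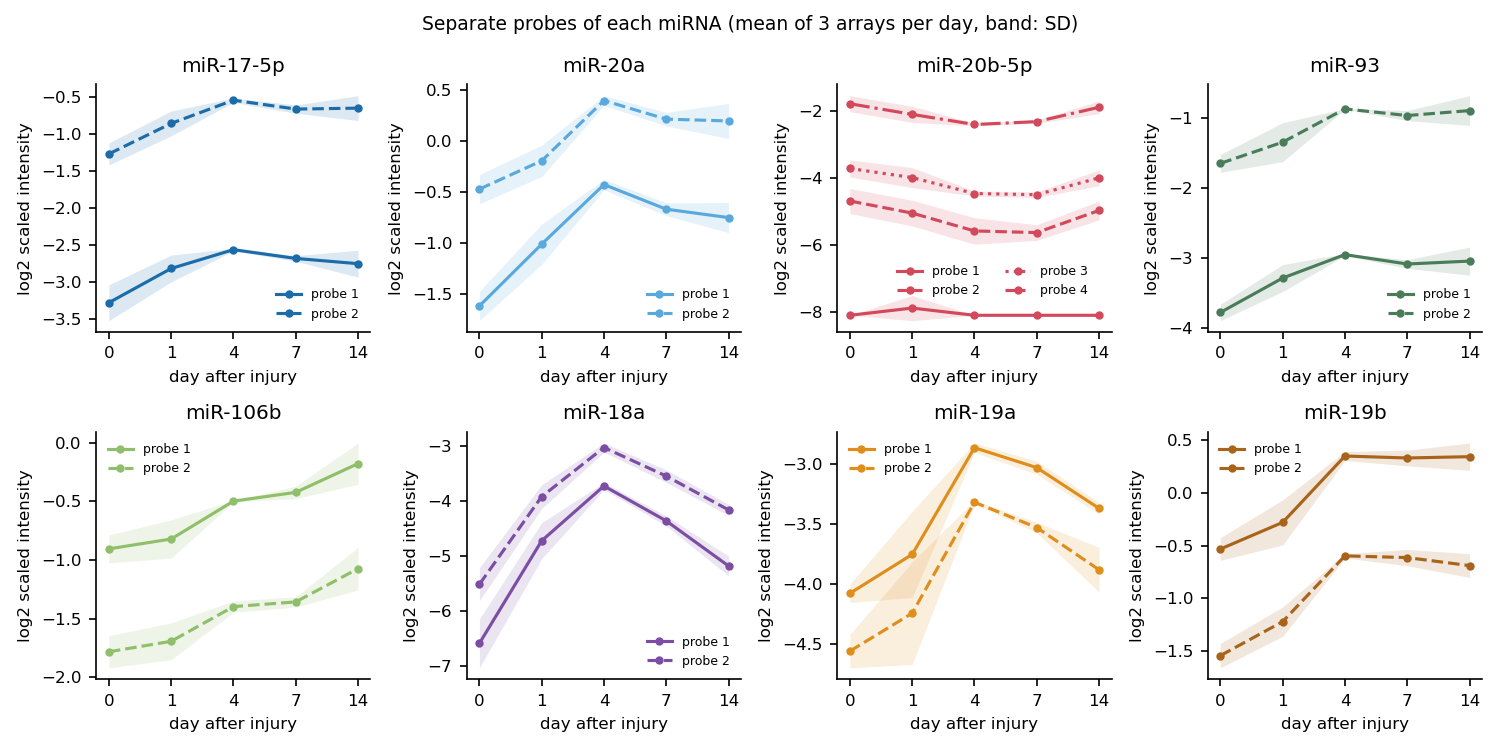
Log2 scaled intensity of each probe of the 8 miRNAs (y axis) by day (x axis, evenly spaced). Lines join means of 3 arrays and bands show the SD. The probes of a miRNA run roughly parallel at different heights, and 1 of the 4 probes of miR-20b-5p lies near the floor of -8.11.

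Across the 15 arrays, which share the time course and are given as a description, miR-17-5p correlated at 0.97 with miR-20a, 0.96 with miR-93, 0.92 with miR-19b, 0.88 with miR-19a, 0.84 with miR-18a and 0.79 with miR-106b. Its correlation with miR-20b-5p was -0.47. miR-18a and miR-106b were the least alike of the members that rose, at 0.44. Outside the families, the 157 other miRNAs detected on every array were ranked by Pearson's r over the 15 arrays. miR-146b (0.90), miR-340-5p (0.86) and miR-25 (0.86) were most like the mean of the 5 miR-17 seed members. That mean includes miR-20b-5p, which ran opposite to the others. miR-222 (0.93), miR-221 (0.91) and miR-7a (0.88) were most like miR-18a. miR-15b (0.97), miR-221 (0.95) and miR-21 (0.94) were most like the mean of miR-19a and miR-19b. The median r over the 157 was -0.22, -0.53 and -0.38 for these 3 profiles.

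Of 17 names looked up for other miRNAs of the 3 clusters, some of them alternative names of the same arm, 9 were on the array and 3 could be tested. miR-92a, whose copies lie on chromosomes 15 and X and whose seed is of another family, changed by 0.25, 0.39, 0.32 and 0.22 on days 1, 4, 7 and 14 (SE 0.12) and passed on days 4 and 7 (adjusted p = 0.0124 and 0.0363). miR-25, the neighbour of miR-93 and miR-106b, passed only on day 14, at 0.31 ± 0.13 (adjusted p = 0.0441). miR-363, which like miR-20b-5p is encoded in the X-linked cluster alone, fell by 0.41 on day 1 (adjusted p = 0.0199), by 0.61 on day 4 (adjusted p = 0.00166) and by 0.43 on day 7 (adjusted p = 0.0158), with SE 0.14 each, and its day 14 value was -0.15. Relative to the median change of all tested miRNAs, miR-363 was at -0.16, -0.35, -0.10 and 0.22 on the 4 days, and 45.5% of all tested miRNAs were lower on each of days 4 and 7.

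MYC is known to repress other miRNAs in human and mouse cells, and 21 of a list of 22 of these were on the array and tested. On day 1, 1 was higher and 10 lower, beside 16.9% and 43.7% of all tested miRNAs, and 10 of 21 is near that share. On days 4 and 7 the counts were 2 higher and 17 lower. Of all tested miRNAs, 20.3% and 17.3% were higher on these days, and 45.5% were lower on each day. On day 14 they were 1 and 12, where 16.0% were higher and 50.6% lower. The lower share was again near that of the list. Their median change was -0.28, -0.68, -0.63 and -0.34, beside -0.26, -0.26, -0.32 and -0.37 for all tested miRNAs. miR-26b, which like miR-26a restrains the methyltransferase EZH2, fell by 1.04 ± 0.10 on day 4 (adjusted p = 1.7e-06), and let-7a, a differentiation miRNA, by 0.86 ± 0.10 (adjusted p = 6.48e-06). miR-30c fell by 0.95 ± 0.11 (adjusted p = 7.73e-06) on day 4. miR-29a and miR-29b, which target collagen transcripts, were higher on day 4, by 0.32 ± 0.11 and 1.01 ± 0.11 (adjusted p = 0.0163 and 6.39e-06). MYC itself was not measured. Its part in the changes of this list, or in those of the seed families, was not tested.

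Markers of blood cells and glia moved over the same days. The 5 leukocyte miRNAs, all detected on every array, summed to 162% to 192% on day 0, 317% to 426% on day 1, 287% to 323% on day 4, 290% to 320% on day 7 and 220% to 281% on day 14. Of the 5, 3 were higher and 0 lower on day 1, and 3 were higher and 1 lower at each later time, where 16.0% to 20.3% of all tested miRNAs were higher and 43.7% to 50.6% lower over the 4 days. The leukocyte sum was highest on day 1, as was miR-223, but the 5 did not share a course. By group mean, miR-142-3p and miR-142-5p were highest on day 7, miR-342-3p on day 14 and miR-150 on day 0. miR-150 stands both on this list and on that of MYC-repressed miRNAs. The 2 erythrocyte miRNAs on the array summed to 73.4% to 398% on day 0, 304% to 953% on day 1, 172% to 370% on day 4, 109% to 261% on day 7 and 117% to 137% on day 14. The 5 skeletal muscle miRNAs ranged from 73.8% to 1629% on day 0, 166% to 396% on day 1, 45.2% to 56.0% on day 4, 27.0% to 84.9% on day 7 and 88.1% to 223% on day 14. The 5 miRNAs of myelinating glia, among which miR-338, miR-138 and miR-204 were detected on every array and miR-219-5p on 2 of 15, summed to 1690% to 2592% on day 0, 1110% to 1474% on day 1, 874% to 1025% on day 4, 891% to 980% on day 7 and 1029% to 1394% on day 14. The 2 endothelial miRNAs summed to 316% to 345% on day 0, 218% to 251% on day 1 and 273% to 301% on day 4. They summed to 277% to 296% on day 7 and 226% to 288% on day 14. The 5 of smooth muscle and fibroblasts summed to 997% to 1144% on day 0 and 721% to 807% on day 1. On days 4, 7 and 14 that sum was 863% to 947%, 1001% to 1079% and 973% to 1019%. Of these 5, 1 was higher and 3 lower on day 1, and 2 and 3 on day 4. On days 7 and 14 these counts were 2 and 2, beside the shares of all tested miRNAs above. A sum follows its brightest miRNAs most. Among glial ones, miR-338, the brightest, changed against day 0 by -1.27 on day 4 and -0.79 on day 14. miR-204 changed by -0.66 and -0.42, miR-138 by -0.97 and -1.75, and miR-211 by -0.19 and -0.75. The part of any of these cell types in the changes of the 8 miRNAs was not tested.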

How the data were processed

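Per the file headers, the deposited scanner files hold spot intensity values from Agilent Feature Extraction 10.7.3.1, background-subtracted and not scaled between arrays. By its values, the authors' deposited table is in log2 units, with a median of 4.116 in every column except that of day 14 replicate 3 (0.834), lacks miR-17-5p and served as an alternative. Its normalization is not given in the sources used here.

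After removal of outlier and control spots, intensity was averaged per probe and then per miRNA. The 75th percentile of the 164 miRNAs detected on every array was set to 1 on each array, and values were floored and log2-transformed (floor -8.11). Testing was limited to the 231 miRNAs that a whole group of 3 arrays detected. Group means were fitted with limma (version 3.58.1, R version 4.3.3) in a model of 5 groups with 10 residual degrees of freedom, and two-sided p-values were adjusted by Benjamini and Hochberg's method at a threshold of 0.05. Errors are standard errors, n = 3 arrays per group. The limma step was tested on simulated data. Python 3.11.15, pandas 2.3.3, scipy 1.17.1 and matplotlib 3.10.9 were also used.

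The members and lists were chosen with earlier results of these data known. The naming rule took all 8 members, the lists of cluster, MYC-repressed and marker miRNAs, and the 3 miRNAs most like each profile. Named members of the lists were picked after their values were seen. Alternatives were 4 other scalings, the deposited table, the total signal of the software, no detection filter, a replicate block, slide as a block, normexp on spot medians and leaving out each array. The spot means that one planned correction calls for were not analysed here, so spot medians were used, a choice made after seeing the data, as were normexp without an offset and scaling by the median of the tested miRNAs. Replicate numbers gave no sign of pairing, though so few arrays cannot exclude it. Same-numbered deviations correlated at -0.78 to 0.59, median -0.05, over 30 pairs. On arrays, depth is signal over background, and 3 arrays per group limit the precision.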

Additional observations from a re-analysis of the deposited data

How the results depend on the processing

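Against day 0, the counts on days 4, 7 and 14 stayed within 1.5 times under every alternative run, at 6 to 7 higher and 1 lower, 6 to 7 and 1, and 5 to 7 and 0, and 7 to 8 members passed the F test. On day 1 the count of 5 higher and 0 lower was 1 and 1 without scaling, where 32 and 127 of all 231 tested miRNAs were. On day 4 against day 1, where 0 were lower, 1 was lower under quantile normalisation, the deposited table, the replicate block, slide as a random block, normexp with no offset and median scaling. On day 7 against day 4, 1 was lower in the deposited table, with slide as a random block and under median scaling. On day 14 against day 7, where 0 were higher, 2 were higher with the 75th percentile over all miRNAs, without scaling and with the replicate block, and 1 was higher under quantile normalisation, the deposited table, slide as a random block and median scaling. In that comparison 1 was lower, but 0 under quantile normalisation, no scaling, the deposited table and the total signal, and 2 under median scaling. Of the 7 pairs, 2 passed, but 1 under normexp with no offset and 0 in the deposited table, which lacks miR-17-5p and so holds 2 of them. Leaving out 1 array at a time gave 3 to 7 higher and 0 to 1 lower on day 1, 4 to 7 higher and 0 to 1 lower on day 4 against day 1, 0 to 1 lower on day 7 against day 4, 0 to 2 higher and 0 to 2 lower on day 14 against day 7, and 0 to 3 passing pairs. Without 1 day 0 array there are fewer splits, and no pair passed. The replicate block changed no count against day 0 by over 1.5 times, and 5 of 15 arrays correlated best with an array of their own number. The cause was not tested for the other shifts.

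Single values that changed sign were miR-20b-5p on day 14 against day 0, -0.16, which was 0.20 with the percentile over all miRNAs, 0.041 under quantile normalisation, 0.043 in the deposited table, 0.22 without scaling and 0.023 under median scaling, none of which passed. miR-20b-5p on day 7 against day 4 was -0.069 under normexp, and miR-106b on day 1 was -0.058 without scaling. Under normexp with the offset, which compresses dim signals, the shifts of miR-18a and miR-19a against miR-17-5p were -0.014 and -0.15. The shift of miR-19a against miR-19b was -0.34 with the offset and -0.15 with no offset. With the offset, miR-19a against miR-19b passed in the place of miR-18a against miR-17-5p. Of 1322 single values under alternatives, 1211 kept their direction and side of the threshold, 48 no longer passed, 52 newly passed and 11 changed sign. Signal over background limits miR-18a most, detected on 13 of 15 arrays.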

Other observations

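The opposite arms that the array holds were at or near background. miR-20a* was at 0.214% to 0.231% of the array's 75th percentile on day 0, detected on none of 3 arrays, at 0.475% to 0.659% on day 4, detected on 1 of 3, and at 0.348% to 1.14% on day 7, detected on 2 of 3. miR-106b* was detected on 5 of 15 arrays, miR-20b-3p on 4, miR-17-3p on 3, miR-25* on 1 and miR-363* on none, and none of these could be tested.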
